A study of Arabidopsis thaliana with 11 samples.

Results

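The pericycle is the cell layer that encloses the vascular tissue of the root, and the genes described here are those whose signal was far higher in sorted pericycle cells than in sorted cortex cells but whose symbol in the annotation is only a locus code. A member is a probe set assigned to exactly 1 gene whose symbol is only such a code, with a group mean at least 2 log2 units higher in pericycle than in cortex among salt arrays and again among control arrays. Of the 22746 probe sets on the arrays that are not array controls, 11933 represent 1 gene known by locus only, and 137 of these met the rule. They belong to 137 different loci, all of which were found in the RefSeq annotation. The members were chosen by the measured cell type differences in group mean, which are given below as a description without a test.

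Arabidopsis seedlings were 7 days old at harvest, and the 11 arrays came from 4 groups. Pericycle cells were sorted from line J2731, with 3 arrays from seedlings grown 5 days without and 2 days with salt and 2 arrays from seedlings kept without salt. Cortex cells were sorted from line J1551 in the same manner, with 3 salt arrays and 3 control arrays. Salt was added in steps, first NaCl at 25 mM together with CaCl2 at 0.22 mM, and a day later NaCl at 50 mM together with CaCl2 at 0.375 mM. A biological sample is all the seedlings of a tank, and all roots were digested with wall-degrading enzymes for 30 min before sorting, in every group. Each cell type came from a line of its own, so that cell type and line cannot be told apart.

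The cortex is ground tissue between the epidermis and the endodermis, where water and ions cross the root from cell to cell or along the walls. Pericycle cells sit next to the xylem and phloem, pass ions on to the xylem, stay competent to divide and give rise to lateral roots. A gene with only a locus code has been placed on the genome, but the annotation used here gives it no symbol of its own. This annotation holds no product names, so the lack of a stated function is not particular to these genes. Whether members have been characterised elsewhere was not examined. No function is therefore given for the members. The exception is AT2G31110, for which the annotation holds the synonym TRICHOME BIREFRINGENCE-LIKE 40 (TBL40), from a family tied to acetylation of wall polysaccharides. By the form of the name, 2 members had a synonym that is not a clone name. The synonym of the other member was not used here.

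Arrays within a group correlated at 0.917 or more in pericycle salt samples, 0.947 in pericycle control samples, and at least 0.993 in cortex salt and 0.987 in cortex control samples. The library that differed most was pericycle salt replicate 1, which limma weighted at 0.171 where the other arrays had 0.436 to 2.98. Its GAPDH 3' minus 5' difference, a sign of RNA quality, was 1.00 against 0.281 to 0.873 in the other arrays. Of 12 listed stele markers 3 had a probe set assigned to them: LBD16, a transcription factor gene of lateral root initiation, had a mean of 6.44 in pericycle salt and 6.14 in pericycle control samples, against 2.06 in cortex salt and 2.26 in cortex control samples. LHW, a regulator of vascular cell division, was also higher in pericycle, while LBD29 lay below 2.3 in all group means. Of 4 listed cortex markers 3 were measured, and CO2 and JKD had means under 2.4 in every group, while PEP was higher in pericycle than in cortex by 1.04 under salt and 0.82 in control conditions. These markers therefore did not mark the cortex samples. Of the other lists, 1 of 5 phloem markers and 2 of 7 root hair and epidermis markers were measured. None of the listed xylem, endodermis or root cap markers was measured, so these cell types were not examined. The phloem marker OPS averaged 7.08 in pericycle salt and 5.98 in pericycle control samples, against 4.26 and 4.31 in cortex salt and control samples, and what share phloem cells had in the member values was not tested. The root hair genes EXPA7 and EXPA18 together averaged 2.57 to 4.36 in the pericycle salt arrays, 3.61 to 4.33 in pericycle control, 2.82 to 3.90 in cortex salt and 4.79 to 5.30 in cortex control arrays.

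Over the members, the median difference between pericycle and cortex was 3.25 (log2) under salt, with a range of 2.01 to 5.54, and 3.17 in control conditions, with a range of 2.01 to 6.32. Both differences reached 3 in 58 members, 4 in 14 members and 5 in 2 members, while the smaller of both stayed under 2.5 in 45. In these sorted samples fewer expressing cells and less RNA per cell cannot be told apart. In 134 of the 137 members every pericycle array lay above every cortex array, which holds for 6.12% of all probe sets, a share that says nothing about the members because the rule used this contrast. By the same rule 73 locus-only probe sets stood higher in cortex, so that 1.15% of the locus-only probe sets were chosen here and 0.612% met the rule in the other direction. Among the 1580 probe sets of genes with a symbol, 43 met the rule, or 2.72%.

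**Figure D1:**
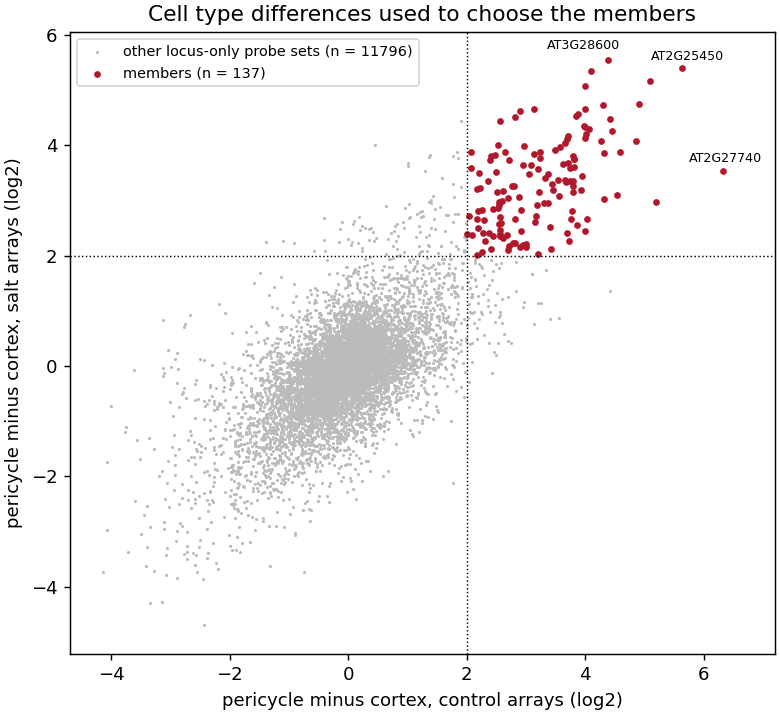
Pericycle minus cortex difference (log2) among control arrays on the x axis and among salt arrays on the y axis, for all probe sets of 1 gene known by locus only. The 137 members (red) lie above 2 on both axes (dotted lines), AT2G27740 reaches furthest to the right at 6.32 and AT3G28600 highest at 5.54.

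AT2G25450 had the largest difference by the smaller of both values. Its log2 values were 8.55, 8.05 and 7.74 in the pericycle salt arrays and 8.42 and 8.41 in the pericycle control arrays, against 2.76, 2.54 and 2.86 in the cortex salt arrays and 3.12, 2.68 and 2.54 in the cortex control arrays. The 5 pericycle arrays and the 6 cortex arrays were separated by a gap of 4.62, and the difference was 5.39 under salt and 5.63 in control conditions. AT5G45500, next in order, had 8.23, 6.62 and 7.88 in the pericycle salt arrays and 7.98 and 7.02 in the pericycle control arrays, against 2.56, 2.27 and 2.38 in the cortex salt arrays and 2.02, 2.58 and 2.62 in the cortex control arrays. The groups were again far apart, although pericycle arrays of the same condition differed from each other by up to 1.61. AT4G15390 had 6.91, 6.78 and 7.06 in the pericycle salt arrays and 6.89 and 7.02 in the pericycle control arrays, against 1.88, 2.07 and 2.53 in the cortex salt arrays and 1.66, 2.24 and 2.21 in the cortex control arrays. It was the most even of the leading members across the pericycle arrays, which spanned only 0.28.

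Some of the 12 members with the largest differences were also clearly measured in cortex. AT5G46730 had 10.55, 11.48 and 9.49 in the pericycle salt arrays and 10.49 and 10.78 in the pericycle control arrays, against 5.79, 6.32 and 6.01 in the cortex salt arrays and 5.69, 6.61 and 6.33 in the cortex control arrays. AT3G28600 had 10.01, 9.38 and 9.17 in the pericycle salt arrays and 9.05 and 8.60 in the pericycle control arrays, against 4.02, 4.68 and 3.25 in the cortex salt arrays and 4.29, 4.49 and 4.55 in the cortex control arrays. The difference was 5.54 under salt and 4.38 in control conditions, the highest value of any member under salt. In both genes the cortex signal was clear of the dim end of the scale.

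AT1G62480 had 8.90, 8.74 and 9.09 in the pericycle salt arrays and 9.69 and 9.35 in the pericycle control arrays, against 3.64, 4.40 and 4.52 in the cortex salt arrays and 4.99, 5.87 and 4.77 in the cortex control arrays. AT3G59370 had 7.02, 8.88 and 7.99 in the pericycle salt arrays and 9.50 and 9.58 in the pericycle control arrays, against 3.80, 4.47 and 3.40 in the cortex salt arrays and 5.38, 6.63 and 3.78 in the cortex control arrays. Its cortex control arrays spread over 2.85, so its cell type difference of 4.28 in control conditions is less precise than those of the members above. AT5G26330 also had 1 high cortex control array, at 4.81 where the others had 2.67 and 3.00. The remaining members of these 12 were AT5G03610 (4.26 under salt and 4.46 in control conditions), AT5G49640 (5.35 under salt and 4.10 in control conditions), AT1G78110 (4.29 under salt and 4.06 in control conditions) and AT1G43910 (4.21 under salt and 4.02 in control conditions). In each of the 12 the lowest pericycle array lay above the highest cortex array.

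**Figure D2:**
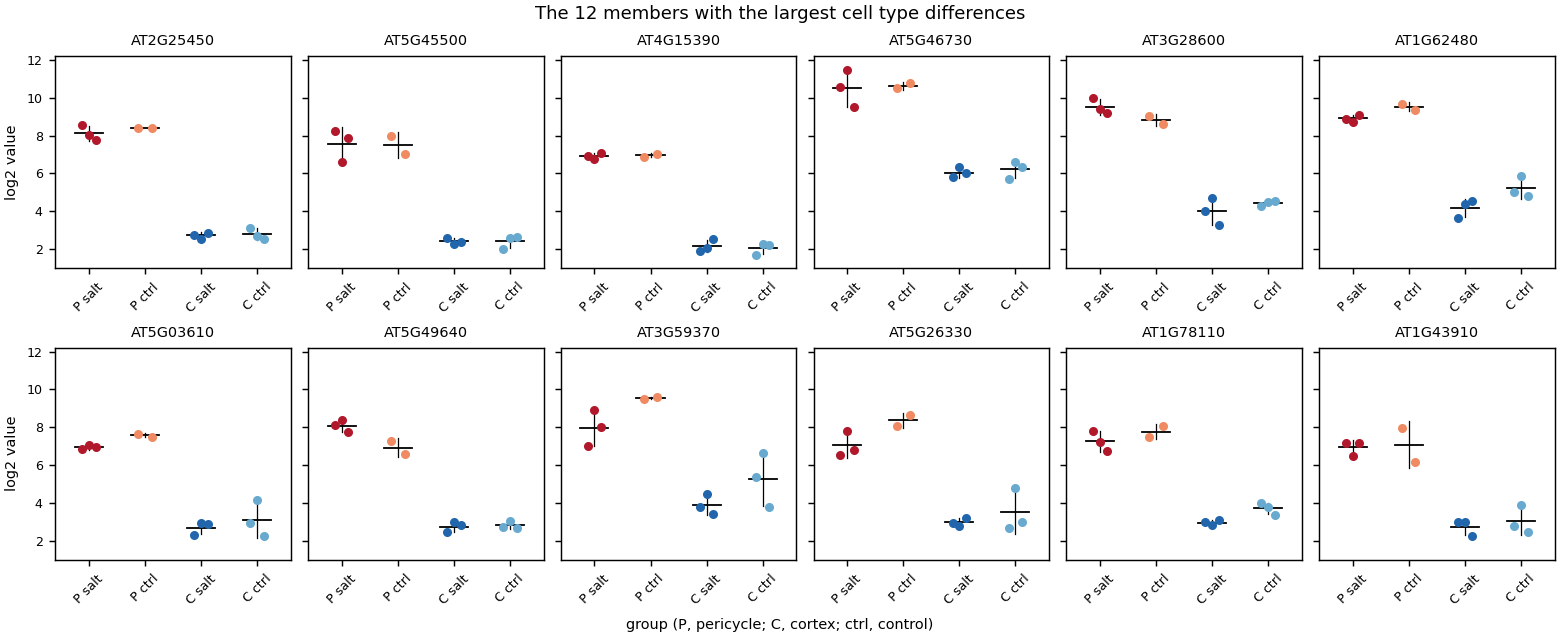
Deposited log2 values of the 12 members with the largest cell type differences, 1 panel each, by group (P, pericycle; C, cortex; ctrl, control). Points are arrays, horizontal bars group means and vertical bars SD; in AT3G59370 the lowest pericycle array (7.02) and the highest cortex array (6.63) come closest.

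Members differed widely in their cortex level. The mean over all arrays that 40% of probe sets fall under is 2.81, and group means under it are called dim here. In 41 members both cortex means were dim, in 18 members 1 of them was and in 78 neither was. No member had a dim pericycle mean. For the 41 members with both cortex means dim, among them AT2G25450, AT5G45500, AT4G15390 and AT5G49640, the difference can understate the true one. At the other end, 18 members had cortex means of at least 5 in both conditions, among them AT5G46730, AT1G14890, AT2G47500 and AT1G12080, so their signal was higher in pericycle but not limited to it. AT1G14890 had 10.71, 10.71 and 10.48 in the pericycle salt arrays and 10.43 and 10.27 in the pericycle control arrays, against 6.56, 7.35 and 6.97 in the cortex salt arrays and 5.90, 7.31 and 6.69 in the cortex control arrays. Its pericycle arrays differed by at most 0.44 and stood apart from all cortex arrays.

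**Figure D3:**
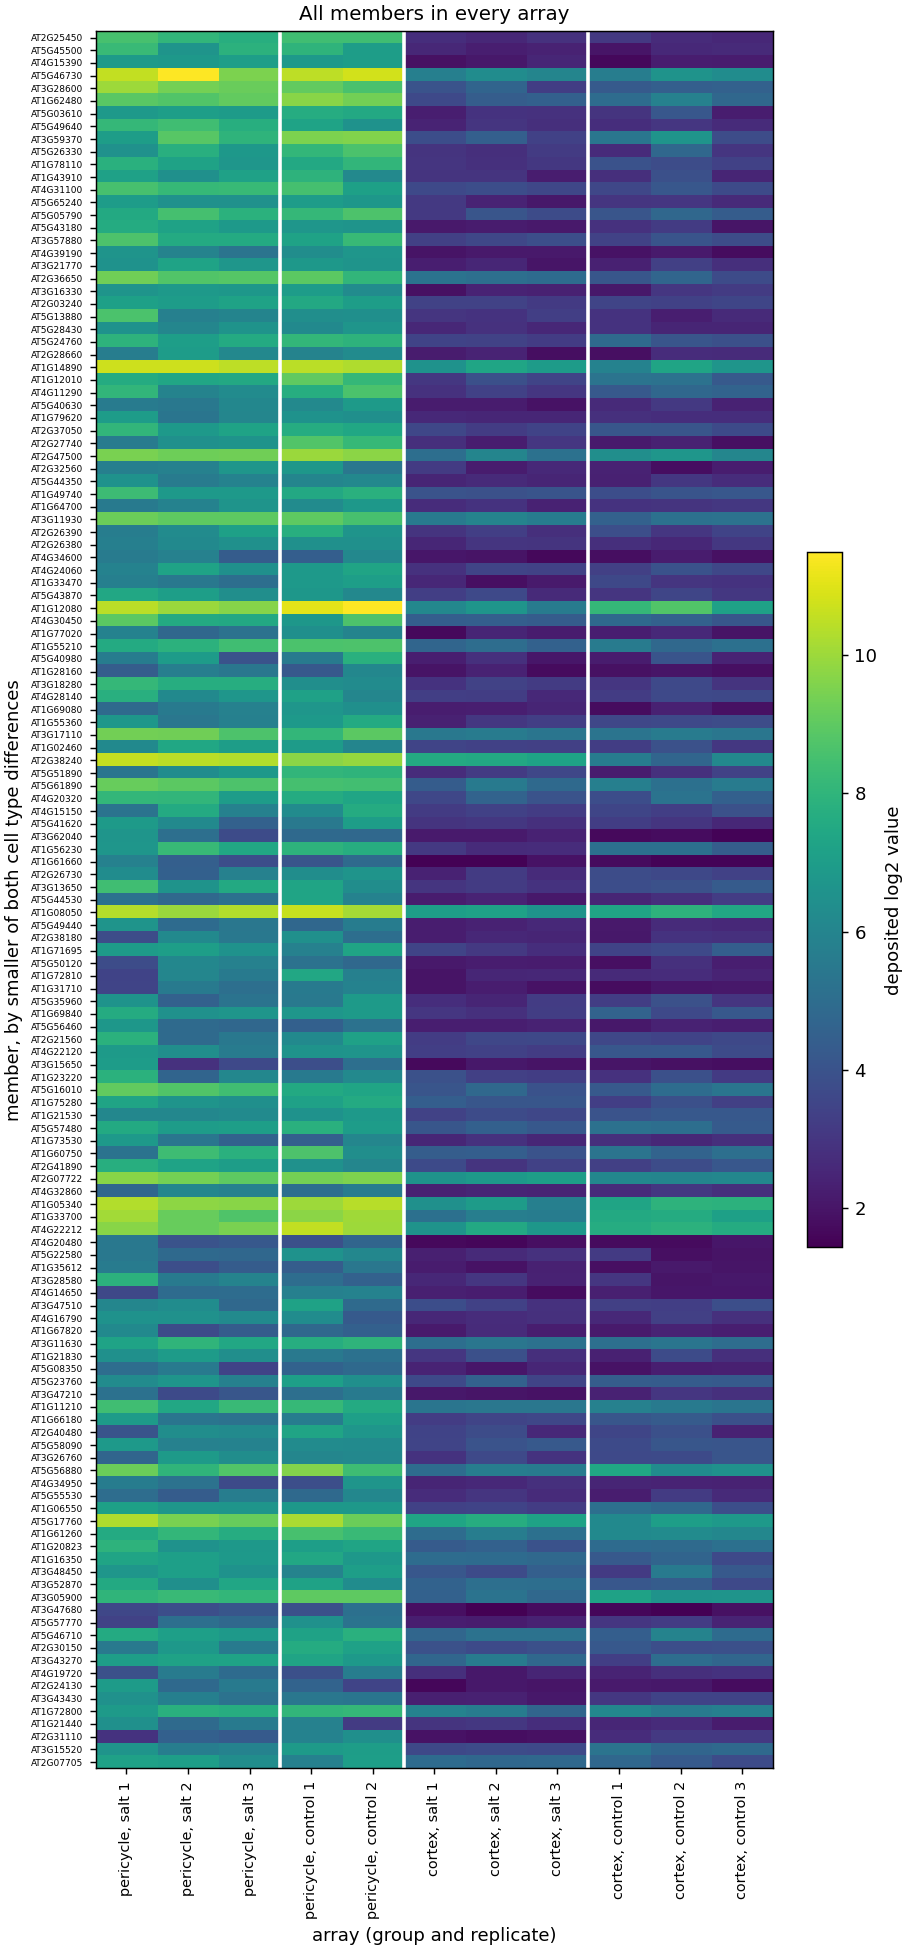
Deposited log2 values of all 137 members (rows, in the order of the smaller cell type difference) in the 11 arrays (columns), with white lines between groups. The 5 pericycle arrays on the left are brighter than the 6 cortex arrays on the right in nearly every row; across members the median was 6.56 to 6.91 in the pericycle arrays and 3.03 to 3.71 in the cortex arrays.

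Over the members, the median value was 6.91, 6.62 and 6.56 in the pericycle salt arrays and 6.87 and 6.81 in the pericycle control arrays, against 3.03, 3.20 and 3.05 in cortex salt and 3.30, 3.71 and 3.41 in cortex control arrays. The pericycle arrays had similar medians, but single members varied more. The SD within a group had a median over members of 0.594 in pericycle salt, 0.352 in pericycle control, 0.25 in cortex salt and 0.315 in cortex control samples. Over all probe sets these medians were 0.365, 0.25, 0.139 and 0.181, so the members' median spread was larger in every group. The rule used the means of these arrays, and the comparison was not matched for signal level. The larger spread is therefore not read as a trait of the members.

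In 3 members the arrays of the cell types overlapped. AT1G60750 had 5.26, 8.37 and 7.83 in the pericycle salt arrays and 8.69 and 6.42 in the pericycle control arrays, against 4.42, 4.43 and 4.00 in the cortex salt arrays and 5.32, 4.65 and 5.10 in the cortex control arrays. Its lowest pericycle array, pericycle salt replicate 1, lay just under the highest cortex array. AT5G40980 had 5.66, 6.95 and 4.00 in the pericycle salt arrays and 5.58 and 7.82 in the pericycle control arrays, against 2.28, 2.84 and 2.04 in the cortex salt arrays and 2.22, 4.06 and 2.45 in the cortex control arrays. Here pericycle salt replicate 3 was low and cortex control replicate 2 high. The remaining one, AT2G31110 (TBL40), is described with the salt responses.

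Membership near the threshold was narrow. The members with the smallest values by the smaller difference were AT2G31110 at 2.02, AT3G15520 at 2.01 and AT2G07705 at 2.01, and just outside lay AT2G14520 at 1.99, AT1G72840 at 1.99 and AT5G42690 at 1.99. Whichever single array was left out, 103 of the 137 members still met the rule. Most members were lost without pericycle salt replicate 1, where 13 did not meet the rule, among them AT3G15650, and 5 others came in. Without pericycle control replicate 2, 9 members were lost and 17 others came in. AT3G15650 had 6.99, 2.87 and 3.65 in the pericycle salt arrays and 3.84 and 5.12 in the pericycle control arrays, against 1.67, 2.10 and 1.96 in the cortex salt arrays and 1.99, 1.90 and 1.80 in the cortex control arrays. Its value in pericycle salt replicate 1 is more than 3 log2 units above the other pericycle salt arrays.

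The rule did not use the salt response within a cell type, so these responses were tested, with limma across all 22746 probe sets and Benjamini-Hochberg adjustment over all of them. A member is said to rise or fall where its adjusted p is under 0.05, differences are salt minus control in log2 units, and errors are limma standard errors. In pericycle cells 4 of the 137 members passed, 1 upward and 3 downward, or 2.92%, where 1.99% of all probe sets passed, 1.04% upward and 0.95% downward. The other 133 did not pass. The median response of the members was -0.16, with 84 below 0 and 53 above, and the median over all probe sets was 0.00. The share that passed was near the background. The 4 calls were made with the variance estimated from both cell types together. A limma fit of the pericycle samples by themselves called 0 members and 0% of all probe sets, although 24 members had an unadjusted p under 0.05. Array weighting also left 0 members, and 0.141% of all probe sets, with 19 members at an unadjusted p below 0.05. The replicate block left 3 members, against 0.853% of all probe sets.

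AT2G27740 fell most clearly. It had 5.62, 6.48 and 6.58 in pericycle salt arrays, against 8.76 and 8.15 in pericycle control arrays, a response of -2.22 ± 0.347 (n = 3 and 2; limma adjusted p = 0.0167). All 3 salt arrays lay at least 1.57 below both control arrays. In cortex it had 2.79, 2.23 and 3.05 in cortex salt arrays, against 2.16, 2.37 and 1.86 in cortex control arrays, and did not pass (adjusted p = 0.488). Its pericycle signal was still 3.54 above cortex under salt, against 6.32 in control conditions, the largest difference of any member in control conditions.

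AT2G31110 (TBL40) fell by the largest amount. It had 2.91, 4.51 and 4.27 in pericycle salt arrays, against 5.90 and 6.43 in pericycle control arrays, a response of -2.27 ± 0.406 (adjusted p = 0.0259). The groups did not overlap, and pericycle salt replicate 1 was the lowest of the salt arrays by 1.36. Cortex values were 1.92, 1.83 and 1.88 in cortex salt arrays, against 2.70, 3.10 and 3.11 in cortex control arrays, with the salt arrays also below all control arrays (response -1.09 ± 0.363, adjusted p = 0.159, not passed). Without pericycle salt replicate 1 the pericycle response was -1.78 (adjusted p = 5.89e-03). The cortex response passed in that fit as well (limma adjusted p = 0.00735). It also passed with only the cortex arrays (limma adjusted p = 0.00121) and with array weights (limma adjusted p = 4.08e-04). Of all probe sets, 7.48%, 19.7% and 21% passed in cortex in these fits.

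AT1G33470 fell by a smaller amount. It had 5.79, 5.45 and 5.07 in pericycle salt arrays, against 6.86 and 7.07 in pericycle control arrays, a response of -1.53 ± 0.299 (adjusted p = 0.0343). Its cortex values were 2.54, 1.83 and 2.18 in cortex salt arrays, against 3.62, 2.98 and 2.90 in cortex control arrays, with a response of -0.98 ± 0.267 that did not pass (adjusted p = 0.0804). Salt arrays were below control arrays in both cell types. The cortex response passed in limma without pericycle salt replicate 1 (adjusted p = 0.0421). It also passed with only the cortex arrays (adjusted p = 0.0186) and with array weights (adjusted p = 0.0081).

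AT3G18280 was the only member that rose in pericycle. It had 8.13, 7.69 and 7.69 in pericycle salt arrays, against 6.39 and 6.30 in pericycle control arrays, a response of 1.49 ± 0.259 (adjusted p = 0.0234). All salt arrays were above both control arrays by at least 1.30. In cortex its values were 2.91, 3.43 and 3.17 in cortex salt arrays, against 3.03, 3.66 and 2.93 in cortex control arrays, where the groups overlapped (adjusted p = 0.993). Of these 4 members, AT3G18280 missed the threshold without pericycle control replicate 2 or cortex salt replicate 3, and with the replicate number as a block. AT2G31110 missed it without pericycle control replicate 2, without any 1 of the cortex salt arrays or without cortex control replicate 2 or 3. AT1G33470 missed it without those arrays and without pericycle salt replicate 2, with the block and with trend and robust variance estimates. AT2G27740 passed whichever array was left out.

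Among the members with responses of 1.31 to 1.86 in size that did not pass, 4 are described here. AT2G24130 had 6.94, 4.88 and 5.55 in pericycle salt arrays, against 4.63 and 3.51 in pericycle control arrays, and a response of 1.72 ± 0.522 (adjusted p = 0.137). AT3G28580 had 7.90, 5.57 and 5.91 in pericycle salt arrays, against 5.02 and 4.54 in pericycle control arrays, and a response of 1.68 ± 0.603 (adjusted p = 0.202). In both, pericycle salt replicate 1 was the highest array. AT5G51890 had 5.36, 6.31 and 6.79 in pericycle salt arrays, against 8.04 and 7.98 in pericycle control arrays, and a response of -1.86 ± 0.446 (adjusted p = 0.0669), and AT5G16010 had 9.09, 8.74 and 8.38 in pericycle salt arrays, against 7.54 and 7.32 in pericycle control arrays, and a response of 1.31 ± 0.363 (adjusted p = 0.105). In all 4 the salt and control arrays did not overlap, yet the test was not passed. These 4 were chosen after their values were seen and do not show how the directions were shared among responses of this size. AT1G72810, AT3G59370 and AT5G44530, among others, fell within the same range and did not pass.

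Leaving out pericycle salt replicate 1 raised the count in pericycle to 10 members, 9 of which fell and 1 of which rose, or 7.3%, where 4.29% of all probe sets passed. The members that passed in addition were AT4G11290 (-2.07), AT1G55360 (-1.59), AT2G21560 (-1.52), AT3G47210 (-1.45), AT3G15520 (-1.19) and AT1G49740 (-0.79), and all 4 named above were again among them. Without pericycle control replicate 1, which leaves 1 control array, 9 members passed, 5 upward and 4 downward, against 4.94% of all probe sets. That lone array is assumed to vary like the other groups. Without pericycle salt replicate 3 the count was 7, against 4.77% of all probe sets. It was 2 without pericycle control replicate 2 (2.62% of all probe sets), cortex control replicate 2 (0.853%) or 3 (1.03%), or cortex salt replicate 1 (0.844%) or 2 (0.805%), and 1 without cortex salt replicate 3 (0.805%).

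In cortex cells 10 of the 137 members passed, 1 upward and 9 downward, and 127 did not pass. This is 7.3% of the members, where 4.16% of all probe sets passed, 1.43% upward and 2.73% downward. The median response of the members was -0.18, with 94 below 0 and 43 above, and the median over all probe sets was 0.01. Of the root hair markers, EXPA7 had a cortex response of -1.26 and EXPA18 of -1.85, neither of which passed (adjusted p = 0.228 and 0.0821 in limma), and their averages given above did not overlap between cortex salt and cortex control arrays. The part of root hair cells in the cortex responses of the members was not tested. In the 41 members with both cortex means dim a fall could be measured only in part. The 73 locus-only probe sets that met the rule in the cortex direction had a median cortex response of 0.39, with 5 that rose and 0 that fell (17 at an unadjusted p under 0.05 in limma).

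AT3G05900 and AT1G33700 fell in cortex in nearly every fit. AT3G05900 had 4.55, 5.28 and 4.85 in cortex salt arrays, against 7.22, 6.59 and 6.62 in cortex control arrays, a response of -1.92 ± 0.226 (n = 3 and 3; limma adjusted p = 0.0013). AT1G33700 had 5.15, 5.73 and 5.64 in cortex salt arrays, against 7.55, 7.61 and 7.15 in cortex control arrays, a response of -1.93 ± 0.326 (adjusted p = 0.00937). In both genes all salt arrays lay at least 1.31 below all control arrays. AT3G05900 passed under each of the 18 alternatives, and AT1G33700 missed the threshold only without cortex salt replicate 1. In pericycle their responses were -0.87 ± 0.253 (adjusted p = 0.12) and -0.58 ± 0.364 (adjusted p = 0.503), which did not pass.

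AT1G56230 fell by the largest amount, with 3.11, 2.67 and 2.73 in cortex salt arrays, against 5.15, 5.14 and 4.39 in cortex control arrays, a response of -2.06 ± 0.355 (adjusted p = 0.0104). Under salt its cortex signal was near the dim limit, while the pericycle arrays had 6.70, 8.21 and 7.45 under salt and 7.92 and 7.69 in control conditions. AT1G12080 had 6.12, 6.68 and 5.60 in cortex salt arrays, against 8.14, 8.76 and 7.19 in cortex control arrays, a response of -1.90 ± 0.405 (adjusted p = 0.0292). It had the highest mean of any member in cortex control arrays, and its pericycle values were 10.43, 9.98 and 9.64 under salt and 11.06 and 11.47 in control conditions. Both had no overlap between salt and control arrays in cortex.

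The other members that fell in cortex did so by 0.92 to 1.43. AT1G12010 had 3.06, 3.88 and 3.49 in cortex salt arrays, against 5.29, 5.21 and 4.22 in cortex control arrays (response -1.43, adjusted p = 0.0445). AT1G05340 had 6.48, 6.93 and 5.79 in cortex salt arrays, against 7.32, 7.91 and 7.88 in cortex control arrays (response -1.30, adjusted p = 0.0445). AT3G15520 had 3.61, 3.75 and 3.65 in cortex salt arrays, against 5.29, 4.72 and 4.89 in cortex control arrays (response -1.30, adjusted p = 0.018). In these 3 genes the salt arrays were all below the control arrays, in AT1G05340 by 0.39. AT1G06550 had 3.40, 3.46 and 3.23 in cortex salt arrays, against 5.09, 4.82 and 3.86 in cortex control arrays (response -1.23, adjusted p = 0.0423). AT1G61260, the smallest of the 9 and outside the rule for named genes, had 4.97, 5.71 and 5.14 in cortex salt arrays, against 6.20, 6.29 and 6.08 in cortex control arrays (response -0.92, adjusted p = 0.0496). These 5 genes each missed the threshold when at least 1 of the cortex arrays was left out, as did AT1G56230 and AT1G12080. AT1G12010, AT1G05340 and AT1G06550 also missed it without pericycle salt replicate 2 or 3, and AT1G61260 without pericycle salt replicate 3. AT1G12010, AT1G05340 and AT1G61260 also missed it with the replicate block, AT1G06550 and AT1G61260 with trend and robust variance estimates, AT1G06550 after median-centring, AT1G05340 after quantile normalization and AT1G61260 with the filter on dim probe sets.

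AT2G38240 was the only member that rose in cortex. It had 7.56, 7.49 and 7.26 in cortex salt arrays, against 5.65, 4.71 and 6.11 in cortex control arrays, a response of 1.95 ± 0.299 (adjusted p = 0.0057). The lowest salt array was 1.15 above the highest control array, and the call held under each of the 18 alternatives. In pericycle it had 10.61, 10.42 and 10.34 in pericycle salt arrays, against 9.72 and 9.89 in pericycle control arrays, with a response of 0.65 ± 0.335 that did not pass (adjusted p = 0.387), although the groups did not overlap. Its cell type difference was 3.02 under salt and 4.31 in control conditions.

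**Figure D4:**
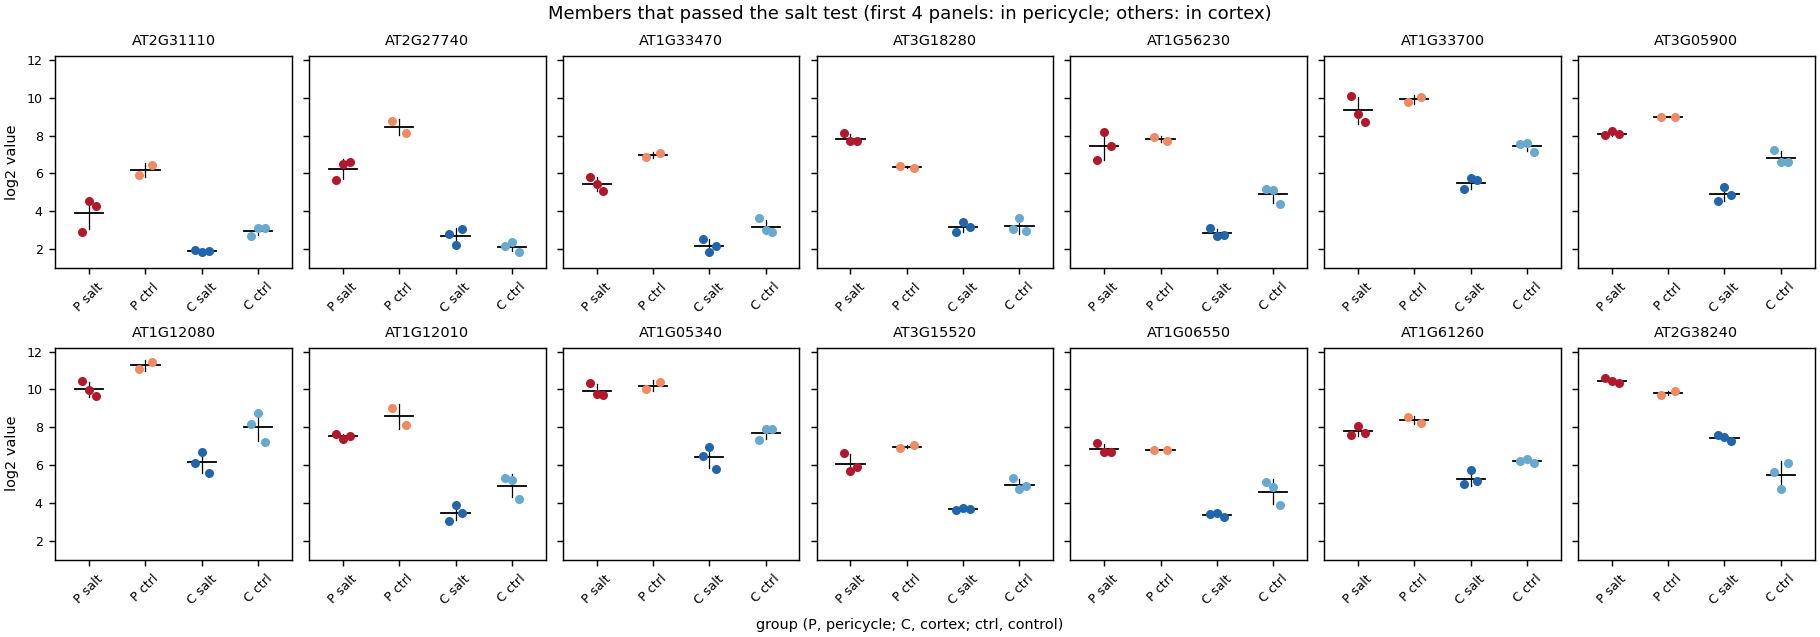
Deposited log2 values of the 14 members that passed the salt test, by group (P, pericycle; C, cortex; ctrl, control); the first 4 panels passed in pericycle and the other 10 in cortex. Points are arrays, horizontal bars means and vertical bars SD; AT3G18280 and AT2G38240 are the members that rose, each in 1 cell type.

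The count in cortex was likewise unstable. When the cortex samples were fitted by themselves, 38 members passed, 7 upward and 31 downward, or 27.7%, where 19.7% of all probe sets passed. With array weights 44 members passed, 6 upward and 38 downward, against 21% of all probe sets. The 10 members above were among them in both fits. Among those added in both were AT3G43430 (-1.07 with the cortex arrays alone), AT4G11290 (-1.44), AT1G69840 (-1.11), AT1G62480 (-1.03) and AT5G56880 (-1.33), which were lower under salt, and AT2G36650 (0.93), AT3G52870 (0.88), AT2G07722 (0.79), AT3G11930 (0.73) and AT1G75280 (0.72), which were higher. With the replicate block it was 7, against 3.04% of all probe sets. The count was 3 without cortex control replicate 1 (1.97% of all probe sets), cortex salt replicate 1 (1.66%) or cortex salt replicate 3 (1.59%), and 4 without cortex control replicate 2 (2.09%). Leaving out pericycle salt replicate 1 gave 17, where 7.48% of all probe sets passed.

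In the main fit none of the members passed in both cell types. With pericycle salt replicate 1 left out, AT2G31110, AT1G33470, AT4G11290 and AT3G15520 passed downward in both. The share of all probe sets that passed in both was not counted. Every salt array was below every control array for 30 members in pericycle (21.9%; 10.8% of all probe sets) and for 38 in cortex (27.7%; 14.8% of all probe sets). Every salt array was above every control array for 12 members in each cell type (8.76%; 10.2% of all probe sets in pericycle and 19.3% in cortex). Salt arrays were below control arrays in both cell types for 17 members (12.4%; 2.87% of all probe sets), among them AT2G31110, AT1G33470, AT3G05900, AT1G12080, AT1G12010 and AT3G15520, and above in both for 1, AT2G38240 (0.73%; 3.36% of all probe sets). Because the rule requires a large difference in both conditions, it bears on how often members respond alike in the cell types, and nothing is read from these 2 counts.

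**Figure D5:**
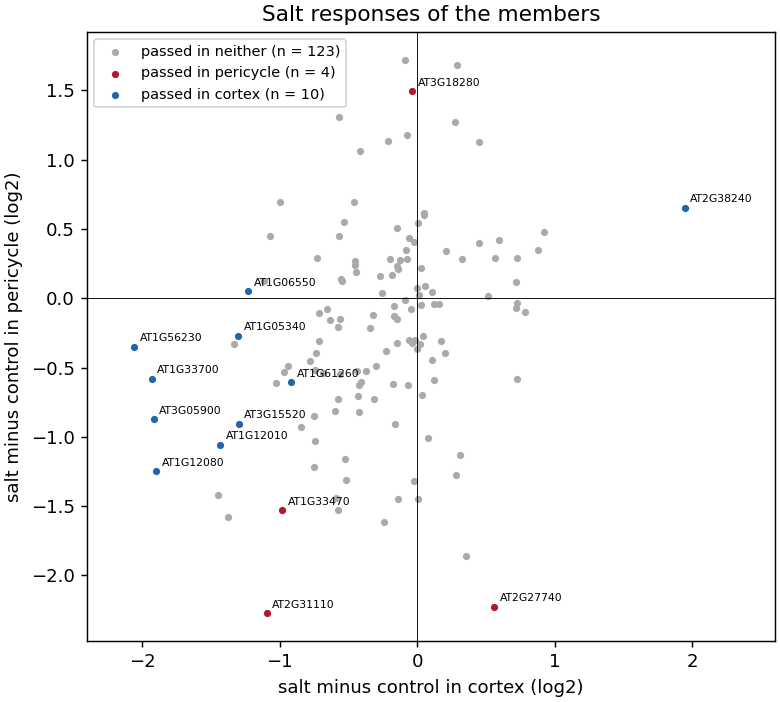
Salt minus control response (log2) in cortex on the x axis and in pericycle on the y axis for the 137 members; red points passed in pericycle (n = 4), blue points in cortex (n = 10) and grey points in neither (n = 123). More members lie below 0 than above 0 on both axes, 94 of 137 in cortex and 84 of 137 in pericycle.

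The cell type difference itself was larger under salt in 71 members and larger in control conditions in 66, and in 74 members both differences lay within 0.5 of each other. The change in the difference equals the pericycle response minus the cortex response and was not tested, because the rule used both differences. It was over 1 in 19 members and under -1 in 12. The most positive were AT5G16010 (1.87), AT2G24130 (1.80), AT1G56230 (1.71), AT3G13650 (1.69) and AT3G18280 (1.53). For AT1G56230 this came with a cortex response of -2.06 and a pericycle response of -0.35, and for AT3G18280 with -0.04 in cortex and 1.49 in pericycle. The most negative were AT2G27740 (-2.79), AT5G51890 (-2.22), AT5G22580 (-1.56), AT2G40480 (-1.46) and AT1G69080 (-1.44). In these 5 the pericycle response was between -1.13 and -2.22 and the cortex response between 0.01 and 0.56.

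The members were spread over the genome, with 41 on chromosome 1, 21 on chromosome 2, 23 on chromosome 3, 18 on chromosome 4 and 34 on chromosome 5. Chromosome 1 holds 29.9% of the members and 25.9% of the locus-only probe sets, and chromosome 3 holds 16.8% and 20.4%. RefSeq lists 134 members as protein-coding, AT5G28430 and AT1G35612 as pseudogenes and AT3G17110 as a transcribed pseudogene. AT3G17110 had 9.33, 9.30 and 8.69 in the pericycle salt arrays and 8.08 and 8.93 in the pericycle control arrays, against 5.45, 5.63 and 5.33 in the cortex salt arrays and 5.28, 5.61 and 5.37 in the cortex control arrays. Its arrays were apart between the cell types, with differences of 3.64 under salt and 3.09 in control conditions. The probe sets of AT5G28430 and AT2G07722 are of a type that can match several transcripts, so their signal may not come from the named locus alone.

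Some members lie close together. Among protein-coding genes, AT2G26380 and AT2G26390 are direct neighbours, as are AT1G72800 and AT1G72810. AT3G28580 and AT3G28600 have 1 gene between them, as do AT5G46710 and AT5G46730, and AT2G38180 and AT2G38240 have 5. AT2G26380 had 5.77, 6.19 and 6.50 in the pericycle salt arrays and 6.49 and 6.47 in the pericycle control arrays, against 2.53, 3.00 and 2.93 in the cortex salt arrays and 2.78, 2.55 and 3.07 in the cortex control arrays. AT2G26390 had 5.68, 6.29 and 7.13 in the pericycle salt arrays and 7.75 and 6.62 in the pericycle control arrays, against 2.94, 3.31 and 2.80 in the cortex salt arrays and 3.85, 3.02 and 3.46 in the cortex control arrays. The cell type differences of this pair were nearly the same, 3.33 and 3.35 under salt and 3.68 and 3.74 in control conditions. In pericycle AT3G28580 and AT3G28600 had salt responses of 1.68 and 0.69, and AT1G72800 and AT1G72810 of -0.61 and -1.61, none of which passed. Whether paired members share probe sequence was not analysed here.

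Of the genes that lie next to a member on the chromosome without being one, 124 had a probe set of their own. Their median difference between pericycle and cortex was 0.19 under salt and 0.17 in control conditions, where the median over all 13355 genes was 0.02 and 0.03. Differences of at least 1 in both conditions were found in 9 of them (7.26%), where 3.89% of all genes had them. These were BLT, which also met the threshold of 2 (2.07 under salt and 2.91 in control conditions), AT4G30460, AT3G05910, AT3G15530, AT2G07721, AT2G38250, AT2G24140, AT1G77030 and AT1G06540, at 1.10 to 2.15. Differences of at least 2 in both conditions were found in 0.81% of the neighbours and in 1.33% of all genes, which include the members. With 9 genes at the lower cut-off, the shares are a description of these neighbours.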

How the data were processed

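RNA of sorted root cells was measured on 11 Affymetrix arrays. The authors deposited log2 expression values, and RMA and limma are named per the submitters' processing notes, without versions. The values themselves show the log2 scale. Array medians of 3.41 to 3.58 are low for default RMA, and the origin of the lowest values is not known here. They were used as deposited, after 64 array control probe sets were left out of 22810. Of the 22746 kept, 13513 had 1 gene in the platform annotation, 503 several and 8730 none, and 13436 were matched to RefSeq (TAIR10.1), which updated symbols.

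Group means were plain means. Salt minus control was tested in limma 3.58.1 under R 4.3.3 (all 11 arrays, a mean per group, eBayes without trend) with two-sided p-values and Benjamini-Hochberg adjustment over all probe sets at 0.05. The code was tested on simulated data. Replicates are separate tanks, and no array has a depth, so their number limits the precision. The main fit did not pair samples by replicate number, and the sample titles do not state whether equal numbers were paired.

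The members and lists were chosen with earlier results of these data known. The genes named are the 12 with the largest smaller difference, members passing the salt test (up to 8 in each direction and cell type), 3 on either side of the threshold and pairs with at most 5 genes between them. Groups by product name were also planned, but the annotation used here holds no product names, so these were not formed. Similarity of proteins was not analysed here, and other genes named were chosen after their values were seen. Alternatives were leaving out each array, array weights, a replicate block, trend and robust variances, a filter on dim probe sets, quantile normalization, median-centring, the arrays of 1 cell type, and other thresholds, medians or symbols for the rule.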

Additional observations from a re-analysis of the deposited data

How the results depend on the processing

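No alternative tried reversed the salt response of any of the 14 members that passed in a cell type, in that cell type. In each of them the salt and control arrays there did not overlap, so leaving out an array could not reverse it. Trend and robust variances, the dim filter and the fit of 1 cell type left the difference itself unchanged. The lack of a reversal is therefore no support for these calls. Other members were not followed through the alternatives. In pericycle the number of members that rose, 1, became 0 with array weights, 0 with the replicate block and 0 with only the pericycle arrays, and ran from 0 to 5 when single arrays were left out. The number that fell, 3, became 0 with array weights and 0 with only the pericycle arrays, and ran from 1 to 9 when single arrays were left out. In cortex the number that rose, 1, became 6 with array weights and 7 with only the cortex arrays, and ran from 1 to 2 when single arrays were left out. The number that fell, 9, became 38 with array weights and 31 with only the cortex arrays, and ran from 2 to 15 when single arrays were left out. With the replicate block 3 members passed in pericycle and 7 in cortex. The share of all probe sets that passed moved as well. In pericycle it was 1.99% in the main fit, 0.141% with array weights, 0.853% with the block and 0% with only the pericycle arrays. In cortex it was 4.16% in the main fit, 21% with array weights, 3.04% with the block and 19.7% with only the cortex arrays. The shifts in member counts are therefore not read as particular to the members. Residuals of same-numbered arrays correlated at -0.151 to 0.107 over 15 pairs, and 3 of 11 arrays correlated best with their own number. The number of members, 137, became 212 at a threshold of 1.5 and 58 at a threshold of 3, ran from 129 to 145 when single arrays were left out, and was 133 with medians, 142 after quantile normalization, 129 after median-centring and 137 with the platform's symbols. The cause of these shifts was not tested. With the filter on dim probe sets 136 members were tested. Low signal limits the cortex values of the members with dim means.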

Other observations

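Pericycle salt replicate 1 was the highest of the 3 pericycle salt arrays for 79 of the 137 members, or 57.7%, where it was the highest for 43.1% of all probe sets. The rule used the mean of these arrays and so favours probe sets that are high in any of them. Nothing is read from the excess over 43.1%. In pericycle salt replicate 1, 23 members lay more than 1 log2 unit above both other pericycle salt arrays and 13 lay more than 1 below both. The share over all probe sets was not counted, so these counts are not read as a trait of the members. AT3G15650 had 6.99 in pericycle salt replicate 1 and 2.87 and 3.65 in the other pericycle salt arrays.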
